A study of Caenorhabditis elegans with 8 samples.

Results

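The homeobox genes described here are the rows of a whole-animal RNA count table from Caenorhabditis elegans whose names follow the ceh pattern with a number, leaving out ceh-10, ceh-14 and ceh-17, together with 17 homeobox genes named for their mutant phenotype or family, lim-4, lim-6, lim-7, lin-11, ttx-1, ttx-3, unc-4, unc-30, unc-42, alr-1, vab-3, vab-7, lin-39, mab-5, egl-5, nob-1 and php-3. This rule used gene names and no measured value, and it found 79 genes among 46422 usable rows. Each encodes, or is named as encoding, a homeodomain, a DNA-binding domain shared by a large family of transcription factors. In the worm, homeodomain factors act as terminal selectors, which switch on and maintain the genes that give a neuron its transmitter, receptors and shape, and most neuron classes carry a combination of them. Others pattern the body axis, as the HOX cluster genes do, or direct pharynx, epidermis, muscle and gonad development. Most are expressed in few cells, so a whole-animal level adds up small and different sets of cells. In such bulk samples, fewer cells of a type and less RNA per cell cannot be told apart.

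The tested strain was HBR227, which carries aptf-1(gk794), with 4 libraries labelled as biological replicates A to D. The wild-type strain N2 had 4 libraries with the same letters. Both strains were collected as whole larvae, without treatment, after 48 h as L1 arrested animals from bleached eggs held in M9 buffer; L1 arrest is the halt of newly hatched larvae that find no food. The mutated gene aptf-1 encodes an AP2 family transcription factor required by RIS, a sleep-inducing neuron, and it is not itself a homeobox gene.

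The libraries held 48.4, 65, 53.5 and 52 M counts (mega-counts) in HBR227 A to D and 43.6 to 56.4 M in N2. The transcript of aptf-1 had 33, 69, 56 and 52 counts in HBR227 A to D, against 161, 196, 182 and 234 in N2 A to D. It fell in HBR227 by 1.92 ± 0.16 on the log2 scale (SE; adjusted p = 0.00011). HBR227 A stood apart from the other 7 libraries: the first principal component, with 46% of the variance, placed it at 74.3 and the others between -28.3 and 9.86. Its correlation with the other HBR227 libraries over genes, which are not independent replicates, was 0.972 to 0.973, against at least 0.994 among B, C and D. For this reason values without HBR227 A are given beside those of all 8 libraries.

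Few homeobox genes differed between the strains, and the differences were small. The call used throughout is an adjusted p under 0.05 in edgeR's quasi-likelihood test, adjusted over all 17522 genes with enough counts to test. Of the 79 homeobox genes, 70 were tested, and 7 of them, 10%, were called, against 21.5% of all genes tested. The 3 that rose, ceh-45, ceh-33 and vab-3, made up 4.29% of those tested, against 11.2% of all genes. The 4 that fell, ceh-86, ceh-23, ceh-27 and ceh-43, made up 5.71%, against 10.4% of all genes. The other 63 did not pass; before adjustment 17 of the 70 were under 0.05. The median log2 fold change was -0.05 for the 70 genes and -0.00 for all genes tested, with 32 of the 70 above 0 and 38 below.

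The sizes were as modest as the counts. Of the 7 called genes, 5 changed by less than 1.5-fold. The standard error of a log2 fold change had a median of 0.11 over the 70 genes and ran from 0.04 to 0.51. In 15 of the 70 genes, 21.4%, all 4 HBR227 values lay above or all lay below all 4 N2 values, against 28.9% of all genes tested. Of these 15 genes 6 lay above and 9 below, and 10 of the 15 were not called. Conversely, ceh-45 and vab-3 were called although 1 HBR227 library overlapped the N2 range. The 9 genes not tested were ceh-7, ceh-12, ceh-75, ceh-81, ceh-82, ceh-84, ceh-85, ceh-87 and ceh-90, with totals of 4 to 84 counts over the 8 libraries and no more than 23 in any of them.

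**Figure D1:**
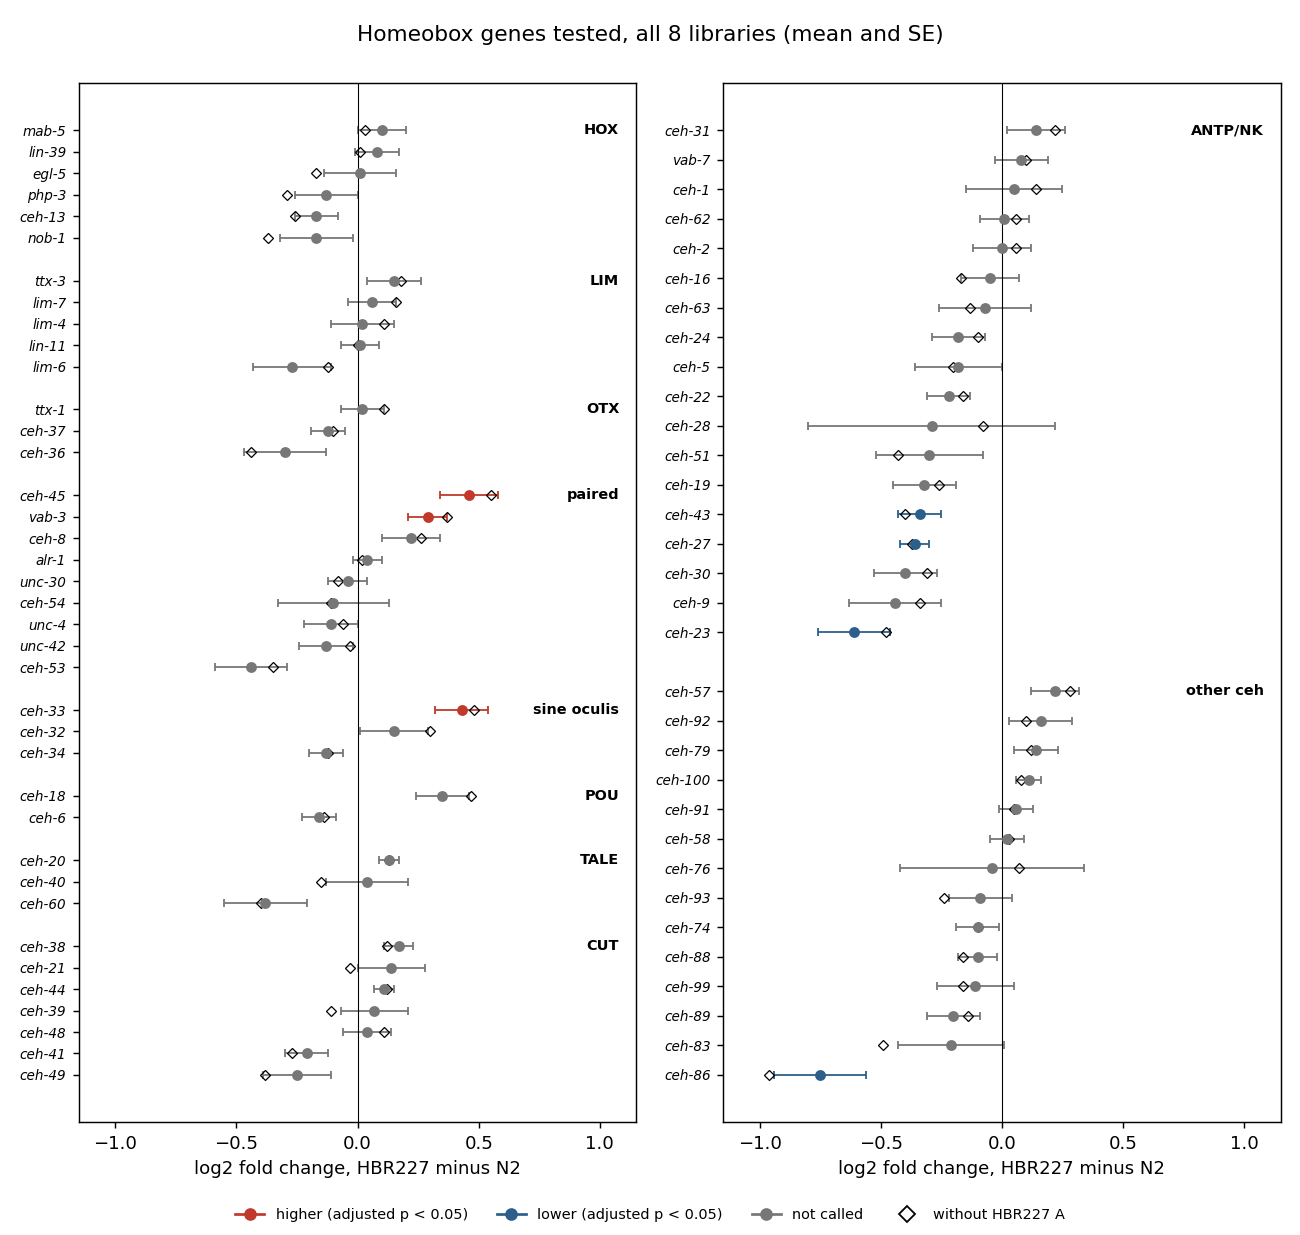
Log2 fold change of HBR227 minus N2 for the 70 homeobox genes tested, grouped by class, with points for the estimate from all 8 libraries and bars for its SE. Red and blue points are the 3 higher and 4 lower genes, gray points are not called, and open diamonds are the estimates without HBR227 A, which lie farther left for the HOX genes nob-1, php-3 and egl-5.

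Leaving out HBR227 A raised the number of calls. Without that library 24 of 72 homeobox genes tested, 33.3%, were called, against 44.3% of all genes. Of these, 10 were higher, against 21% of all genes, and 14 were lower, against 23.3% of all genes. All 7 genes called with the 8 libraries were called again in the same direction. Another 17 were called only without HBR227 A. The 7 higher were ceh-18, ceh-20, ceh-32, ceh-38, ceh-44, ceh-57 and lim-7, and the 10 lower were ceh-13, nob-1, php-3, ceh-30, ceh-36, ceh-41, ceh-49, ceh-83, ceh-88 and ceh-93. The median over the homeobox genes was then -0.09.

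The class with the most called genes was that of the NK, Distal-less, engrailed and other ANTP-class genes, in which 3 of 18 tested genes, 16.7%, fell and none rose, against 10.4% of all genes lower. At unadjusted p under 0.05, 7 were lower and none higher, and DESeq2 and limma voom each called 4 lower and none higher. Leaving out a library gave 4 lower without HBR227 A, 2 without HBR227 B, C or D or N2 B or D, and 1 without N2 A or C, and 1 was lower at an adjusted p under 0.01. The class median was -0.20, with 4 genes above 0 and 14 below. It was -0.19 with DESeq2 size factors or upper quartile scaling, -0.30 with total counts alone, and -0.17 without HBR227 A. Summed over the class, the level was 113, 116, 110 and 117 CPM in HBR227 A to D, against 133, 139, 136 and 130 CPM in N2 A to D, with no overlap between strains. CPM here is counts per M counts of the library, after TMM scaling. The sum includes the 3 called genes, which hold most of the difference, so it is not a separate result. Means of ceh-43, ceh-27 and ceh-23 were 25.4, 23 and 4.54 CPM in HBR227, against 32.1, 29.4 and 6.94 CPM in N2. The highest levels of the class, per length, were those of ceh-43 and ceh-27.

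The gene ceh-27, an NK-2 class gene, had the smallest p among the homeobox genes. It lies on chromosome V, minus strand, 11661549 to 11665102 in the WBcel235 build, which all coordinates here use (WBGene00000449, protein-coding). Its level was 23.9, 23.7, 21 and 23.2 CPM in HBR227 A to D, against 29.0, 29.0, 30 and 29.6 CPM in N2 A to D. Every HBR227 library, A included, lay below every N2 library. The means were 23 ± 1.37 CPM in HBR227 and 29.4 ± 0.472 CPM in N2 (n = 4 each, SD), and the log2 fold change was -0.36 ± 0.06 (SE; adjusted p = 0.0044). Among the 7 genes it was the only one called in each of the 8 fits that left out a library, and the only one with an adjusted p under 0.01.

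The Distal-less ortholog ceh-43, which maintains dopaminergic neuron identity in the worm, fell by a like amount. It lies on chromosome III, minus strand, 4446638 to 4449943 (WBGene00000463, protein-coding). Its level was 28.7, 25.1, 22.9 and 24.9 CPM in HBR227 A to D, against 32.3, 35.7, 31.5 and 28.9 CPM in N2 A to D. The strains did not overlap, though HBR227 A lay just below N2 D. The means were 25.4 ± 2.42 and 32.1 ± 2.81 CPM in HBR227 and N2 (n = 4 each, SD), and the log2 fold change was -0.34 ± 0.09 (SE; adjusted p = 0.024). The adjusted p was 0.057, 0.074 or 0.066 without HBR227 B, C or D and 0.063, 0.076 or 0.061 without N2 A, B or C, so the call was lost in these 6 fits. Without HBR227 A the log2 fold change was -0.40 (adjusted p = 0.00011).

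The gene ceh-23, an ANTP-class gene used as a marker of the AIY interneuron and a target of the LIM factor TTX-3, had the largest fall of its class. It lies on chromosome III, plus strand, 7839592 to 7841491 (WBGene00000446, protein-coding). Its level was 3.21, 4.70, 4.98 and 5.25 CPM in HBR227 A to D, against 6.75, 6.20, 7.83 and 6.99 CPM in N2 A to D. HBR227 A was the lowest of the 8 libraries, and the strains did not overlap with or without it. The means were 4.54 ± 0.913 and 6.94 ± 0.68 CPM in HBR227 and N2 (n = 4 each, SD), and the log2 fold change was -0.61 ± 0.15 (SE; adjusted p = 0.02). The adjusted p was 0.054, 0.075 or 0.058 without N2 A, C or D. Without HBR227 A the log2 fold change was -0.48 (adjusted p = 0.001).

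In 3 further genes of the class the 4 HBR227 values lay below the 4 N2 values without a call. The BarH-type gene ceh-30, known for the survival of the male CEM neurons, had 2.53, 3.45, 3.57 and 3.32 CPM in HBR227 A to D, against 4.06, 4.6, 3.98 and 4.40 CPM in N2 A to D (log2 fold change -0.40 ± 0.13, adjusted p = 0.053). Its call depended on the setting: adjusted p was 0.03 without HBR227 A, 0.032 with DESeq2 and 0.048 with limma voom. The pharyngeal muscle factor gene ceh-22, the worm's NK-2 counterpart of the heart factors of other animals, had 8.29 to 10 CPM in HBR227 and 10.5 to 11.3 CPM in N2 (-0.22 ± 0.09, adjusted p = 0.1). Of its exon length 23.4% overlaps another gene on the opposite strand, so its reads are uncertain where strand was not counted. For ceh-19, which acts in the pharyngeal MC neurons, the values were 2.38 to 3.04 CPM in HBR227 and 3.08 to 4.04 CPM in N2 (-0.32 ± 0.13, adjusted p = 0.12).

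The other 12 tested genes of the class had log2 fold changes of -0.44 to 0.14, with adjusted p of 0.12 or more. The following were chosen after their values were seen. The engrailed gene ceh-16, which acts in the epidermal seam cells, had 11.3, 7.69, 8.40 and 9.15 CPM in HBR227 A to D, against 9.22 to 9.73 CPM in N2 (-0.05 ± 0.12), so HBR227 A lay above N2 and the other HBR227 libraries below it. The even-skipped gene vab-7, which selects DB motor neurons, had 3.44 to 4.04 CPM in HBR227 and 3.24 to 4.03 CPM in N2 (0.08 ± 0.11). The mesoderm gene ceh-51 had 3.62, 3.51, 1.99 and 2.33 CPM in HBR227 A to D, against 3 to 4.5 CPM in N2 (-0.30 ± 0.22). The M4 neuron gene ceh-28 had 0.318 CPM or less in HBR227 and 0.335 CPM or less in N2, and its SE of 0.51 was the largest of all homeobox genes tested.

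**Figure D2:**
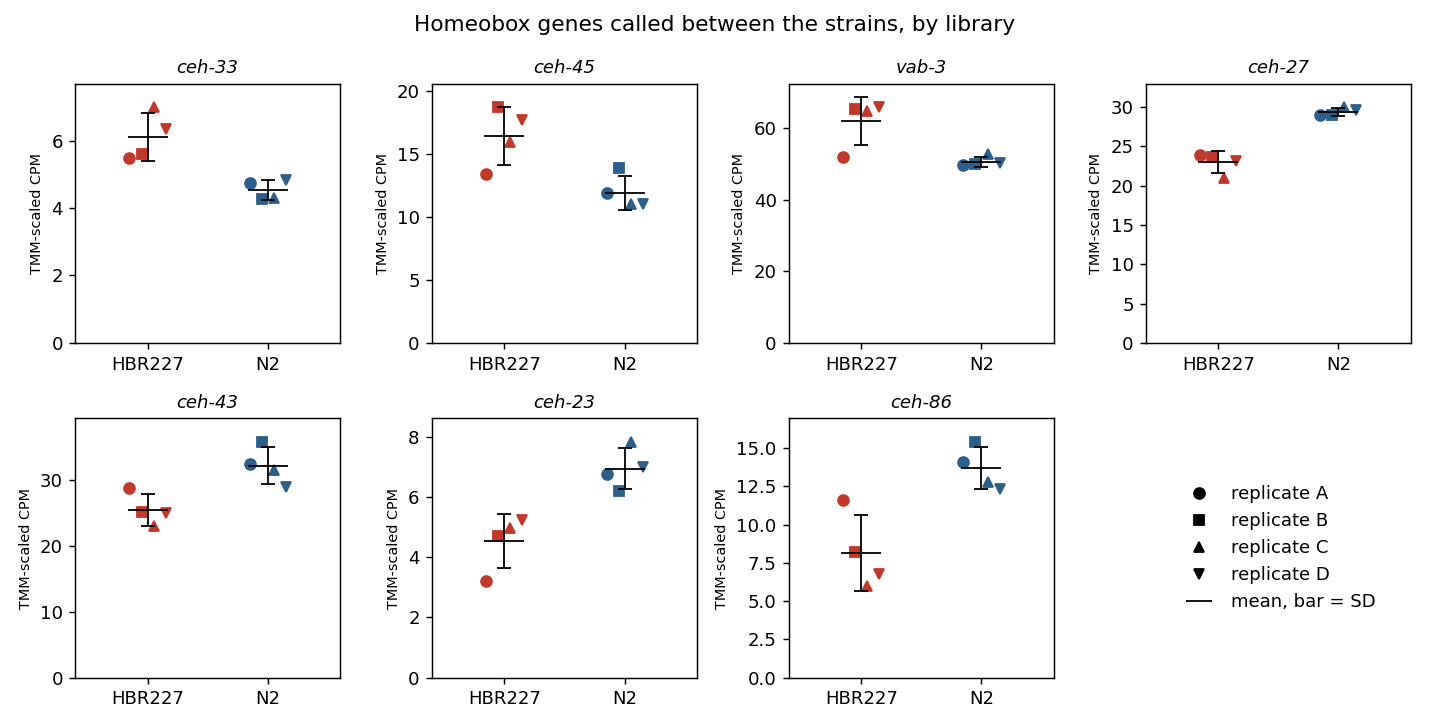
TMM-scaled CPM of the 7 called homeobox genes in each library, with HBR227 left and N2 right in each panel, marker shape for the replicate letter, and the mean and SD as lines (n = 4 each). The strains do not overlap for ceh-33, ceh-27, ceh-43, ceh-23 and ceh-86, and HBR227 A is the HBR227 library nearest N2 in each panel but that of ceh-23.

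Among the 9 paired and paired-like genes, which include several terminal selectors of motor and command neurons, 2 rose and none fell. That is 22.2% higher, against 11.2% of all genes, and the share called in either direction was near the 21.5% of all genes. The gene ceh-45, a Goosecoid-like gene, lies on chromosome I, plus strand, 1128324 to 1131765 (WBGene00022837, protein-coding). Its level was 13.4, 18.7, 15.9 and 17.7 CPM in HBR227 A to D, against 11.9, 13.9, 11 and 11 CPM in N2 A to D. HBR227 A lay below N2 B, and the other 3 HBR227 libraries lay above all N2 libraries. The means were 16.4 ± 2.3 and 11.9 ± 1.37 CPM in HBR227 and N2 (n = 4 each, SD), and the log2 fold change was 0.46 ± 0.12 (SE; adjusted p = 0.023). The adjusted p was 0.062, 0.051 or 0.067 without HBR227 B, C or D and 0.062, 0.073 or 0.07 without N2 A, C or D. Without HBR227 A the log2 fold change was 0.55, and with total counts alone it was 0.36 (adjusted p = 0.081).

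The gene vab-3, the worm's Pax6 gene, which patterns the head and its sensory organs, rose by a smaller fold. It lies on chromosome X, plus strand, 10499890 to 10519580 (WBGene00006870, protein-coding). Its level was 52.1, 65.5, 64.8 and 65.9 CPM in HBR227 A to D, against 49.7, 49.9, 52.8 and 50.2 CPM in N2 A to D. HBR227 B, C and D lay above all N2 libraries, and HBR227 A lay below N2 C. The means were 62.1 ± 6.68 and 50.6 ± 1.44 CPM in HBR227 and N2 (n = 4 each, SD), and the log2 fold change was 0.29 ± 0.08 (SE; adjusted p = 0.025). The adjusted p was 0.063, 0.072 or 0.073 without HBR227 B, C or D and 0.069, 0.072 or 0.067 without N2 A, B or D. Without HBR227 A the log2 fold change was 0.37, and with total counts alone it was 0.19 (adjusted p = 0.13).

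The selectors of the class were not called. The GABAergic motor neuron selector unc-30 had 10.4 to 11.5 CPM in HBR227 and 10.7 to 11.5 CPM in N2 (-0.04 ± 0.08). The command interneuron selector unc-42 had 8.88 CPM in HBR227 A, 11.4 to 12.6 CPM in HBR227 B to D and 11.6 to 12.7 CPM in N2 (-0.13 ± 0.11). The motor neuron gene unc-4 had 2.62 to 3.28 CPM in HBR227 and 3.06 to 3.34 CPM in N2 (-0.11 ± 0.11). These 3 genes, and alr-1 (0.04 ± 0.06), were chosen after their values were seen. Both ceh-53 and ceh-8 separated the strains without a call, ceh-53 at 1.03 to 1.41 CPM in HBR227 against 1.63 to 1.84 CPM in N2 (-0.44 ± 0.15, adjusted p = 0.057) and ceh-8 at 3.69 to 4.79 against 3.24 to 3.65 CPM (0.22 ± 0.12, adjusted p = 0.23).

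The 3 sine oculis genes found by the rule gave different values although 2 of them are neighbours. These genes are relatives of factors of eye and head development in other animals. The gene ceh-33 rose, at 5.48, 5.61, 6.99 and 6.34 CPM in HBR227 A to D, against 4.75, 4.27, 4.30 and 4.83 CPM in N2 A to D. All HBR227 libraries lay above all N2 libraries. The log2 fold change was 0.43 ± 0.11 (SE; adjusted p = 0.023), and without HBR227 A it was 0.48. The adjusted p was 0.071 or 0.064 without HBR227 C or D, 0.065 or 0.066 without N2 B or C, and 0.058 with total counts alone. ceh-33 (WBGene00000454, protein-coding) lies on chromosome V, minus strand, 5323194 to 5324666.

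Its neighbour ceh-34, a selector of pharyngeal neurons, lies 3616 bp away on the same strand. It had 12.5, 13.5, 12.7 and 13.1 CPM in HBR227 A to D, against 13.9, 14.6, 14.6 and 13.9 CPM in N2 A to D. The HBR227 values were all below the N2 values, but the difference was not called (-0.13 ± 0.07, adjusted p = 0.2). The third gene, ceh-32, a gene for head morphogenesis, had 64.3, 106, 102 and 107 CPM in HBR227 A to D, against 86.6, 87.3, 86 and 82.4 CPM in N2 A to D. HBR227 A lay below all N2 libraries and the other 3 lay above them. With all libraries the log2 fold change was 0.15 ± 0.14 (adjusted p = 0.51), and without HBR227 A it was 0.30 ± 0.04 (adjusted p = 9.7e-06).

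The POU gene ceh-18, known from the gonadal sheath, where it acts in oocyte development, showed the same placing of libraries. It had 50.4, 71.2, 73.9 and 76.1 CPM in HBR227 A to D, against 52.7, 52.7, 54.5 and 53.3 CPM in N2 A to D. HBR227 A lay below the N2 range and B, C and D lay well above it. The log2 fold change was 0.35 ± 0.11 with all libraries (adjusted p = 0.053) and 0.47 ± 0.04 without HBR227 A (adjusted p = 1.1e-07), and DESeq2 called it with all libraries (adjusted p = 0.029). The other POU gene found by the rule, ceh-6, had 14.1 to 15.8 CPM in HBR227 and 15.7 to 17.3 CPM in N2 (-0.16 ± 0.07, adjusted p = 0.14). It is needed for the excretory canal and was chosen after its values were seen.

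The 6 HOX cluster genes, which assign identity along the body axis, were not called with all libraries. None was under an unadjusted p of 0.05, and DESeq2 and limma voom also called none. Their level summed to 150, 106, 116 and 113 CPM in HBR227 A to D, against 126, 126, 124 and 132 CPM in N2 A to D. HBR227 A was above all other 7 libraries for each of the 6 genes, and for 29.6% of all genes tested. Without it the HBR227 sums lay below all N2 sums. The class median was -0.06 with all libraries and -0.22 without HBR227 A.

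The 3 HOX genes called without HBR227 A were the anterior gene ceh-13, the labial ortholog, and the posterior pair nob-1 and php-3, which are Abdominal-B related. The gene nob-1 had 25.5, 15, 16.9 and 16.2 CPM in HBR227 A to D, against 22, 20.1, 19.8 and 21 CPM in N2 A to D. Its log2 fold change was -0.17 ± 0.15 (adjusted p = 0.46) with all libraries and -0.37 ± 0.06 (adjusted p = 0.00018) without HBR227 A. The gene php-3, which lies 236 bp from nob-1 on the same strand, had 29.9, 19.4, 21.2 and 20.8 CPM in HBR227 A to D, against 26.1, 22.5, 25.7 and 25.7 CPM in N2 A to D. Its values were -0.13 ± 0.13 (adjusted p = 0.51) and, without HBR227 A, -0.29 ± 0.06 (adjusted p = 0.0014). For ceh-13 the levels were 37.1, 28.5, 29.4 and 28.7 CPM in HBR227 A to D, against 33.7, 37, 32.8 and 35.4 CPM in N2 A to D. HBR227 A was again the highest library, and ceh-13 gave -0.17 ± 0.09 (adjusted p = 0.23) and, without it, -0.26 ± 0.05 (adjusted p = 0.00049).

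The other 3 HOX genes, lin-39, mab-5 and egl-5, were not called with or without HBR227 A. The mid-body gene lin-39 had 26.4, 20.2, 23.8 and 22.7 CPM in HBR227 A to D, against 21.2 to 23.1 CPM in N2 (0.08 ± 0.09, and 0.01 ± 0.06 without HBR227 A). The Antennapedia-type gene mab-5 had 18.9, 15.2, 15.8 and 16.7 CPM in HBR227 A to D, against 14.6 to 17.7 CPM in N2 (0.10 ± 0.10, and 0.03 ± 0.07 without HBR227 A). The tail gene egl-5 had 12.4, 8.06, 8.81 and 7.54 CPM in HBR227 A to D, against 8.11 to 9.54 CPM in N2 (0.01 ± 0.15, and -0.17 ± 0.09 without HBR227 A). These 3 values changed sign with total counts alone.

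**Figure D3:**
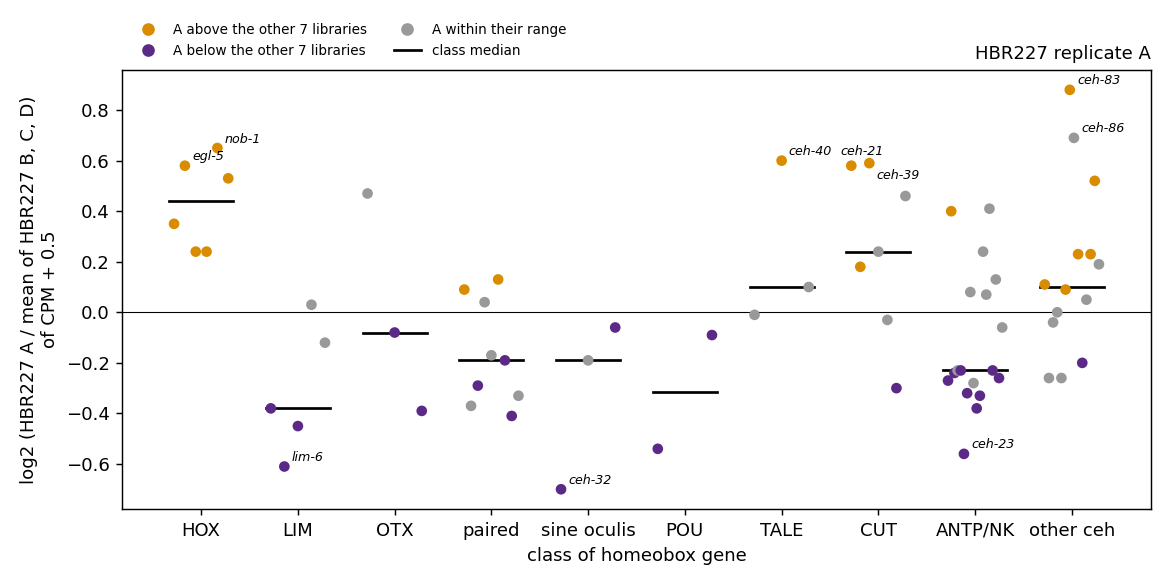
Log2 ratio of HBR227 A over the mean of HBR227 B, C and D (of CPM + 0.5) for the 70 homeobox genes tested, by class, with the class median as a line. Orange points are genes in which A lies above the other 7 libraries and purple points those in which it lies below; all 6 HOX genes are orange, with a class median of 0.44, and the LIM and ANTP/NK medians are -0.38 and -0.23.

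Of the 5 LIM homeobox genes found by the rule, none was called with all libraries. Such genes combine the homeodomain with LIM domains and mostly select neuron types. None of the 5 was under an unadjusted p of 0.05, and DESeq2 and limma voom called none. The gene lim-6, which is expressed in the RIS neuron and other GABAergic neurons, had 3.03, 4.89, 5.27 and 4.47 CPM in HBR227 A to D, against 5.71, 4.82, 5.38 and 5.40 CPM in N2 A to D. HBR227 A was the lowest of the 8 libraries and the other HBR227 libraries overlapped N2. The log2 fold change was -0.27 ± 0.16 (adjusted p = 0.27), and -0.12 ± 0.10 without HBR227 A. The gene ttx-3, the AIY selector acting upstream of ceh-23, had 3.45 to 4.16 CPM in HBR227 and 3.12 to 3.63 CPM in N2 (0.15 ± 0.11, adjusted p = 0.36).

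The remaining LIM genes were close between the strains. The AWB neuron gene lim-4 had 6.76, 8.01, 8.93 and 9.98 CPM in HBR227 A to D, against 7.24 to 8.99 CPM in N2 (0.02 ± 0.13). The vulval and interneuron gene lin-11 had 13.9 to 14.9 CPM in HBR227 and 12.9 to 15.3 CPM in N2 (0.01 ± 0.08). The gonadal sheath gene lim-7 had 22.1, 30.8, 29.7 and 30.3 CPM in HBR227 A to D, against 25.6 to 28.2 CPM in N2 A to D. Its log2 fold change was 0.06 ± 0.10 with all libraries (adjusted p = 0.74) and 0.16 ± 0.05 without HBR227 A (adjusted p = 0.015). The values of lim-4, lin-11 and lim-7 changed sign with total counts alone.

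The 7 CUT and ONECUT genes, several of which maintain pan-neuronal gene expression, had no call with all libraries, while 2 were higher at unadjusted p under 0.05, DESeq2 called 2 higher and limma voom none. The ONECUT gene ceh-38 had 125, 109, 109 and 113 CPM in HBR227 A to D, against 105, 99.8, 99.2 and 101 CPM in N2 A to D (0.17 ± 0.06, adjusted p = 0.055). All HBR227 values were above all N2 values, and ceh-38 was called with DESeq2 size factors (adjusted p = 0.041), with upper quartile scaling (0.032) and without HBR227 A (0.12 ± 0.04, adjusted p = 0.013). The CUX-type gene ceh-44 also separated, with 114, 115, 118 and 116 CPM in HBR227 A to D, against 107, 106, 111 and 105 CPM in N2 A to D (0.11 ± 0.04, adjusted p = 0.086). Its reads are uncertain, since ceh-44, placed by RefSeq on chromosome III at 2530620 to 2543068, lies within the Ensembl gene cone-1. Without HBR227 A, ceh-44 was higher (0.12, adjusted p = 0.014).

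Genes listed here as pan-neuronal markers are given beside these values. Whether each is expressed in all neurons was not tested. Of 20 such markers 6 rose, against 11.2% of all genes, none fell and 14 did not pass. Those that rose were ida-1 (0.34), rpm-1 (0.32), egl-21 (0.27), egl-3 (0.26), sbt-1 (0.24) and unc-13 (0.24). Among the 14 that did not pass, snb-1, unc-64 and ric-4 were each at 0.07, and the list median was 0.11. Of the 20, 16 were above 0 and 4 below: rab-3 (-0.02), snt-1 (-0.01), unc-18 (-0.01) and ehs-1 (-0.17). Without HBR227 A 12 were higher, against 21% of all genes, and 1 lower, against 23.3%. With all libraries their summed level was 6900 to 7490 CPM in HBR227 and 5700 to 6340 CPM in N2, with no marker at 0. Most of that sum came from egl-3, egl-21, ida-1 and sbt-1, so it does not stand for the whole list. With total counts alone 5 rose and 1 fell. Their part in the homeobox results was not tested. A pair of other CUT genes was lower without HBR227 A. The gene ceh-49 had 12.1, 9.12, 8.38 and 8.49 CPM in HBR227 A to D, against 9.76 to 13.4 CPM in N2 (-0.25 ± 0.14, and -0.38 ± 0.10 with adjusted p = 0.0041 without HBR227 A). The gene ceh-41 had 9.43, 7.78, 8.32 and 7.62 CPM in HBR227 A to D, against 9.24 to 9.99 CPM in N2 (-0.21 ± 0.09, and -0.27 ± 0.08 with adjusted p = 0.0093 without HBR227 A). It lies in a run of 3 neighbouring genes on chromosome X with ceh-21 and with ceh-39, which is known as an X signal element in sex determination. Those 2, chosen after their values were seen, had log2 fold changes of 0.14 ± 0.14 and 0.07 ± 0.14, with HBR227 A at 24.1 and 29.4 CPM and the other HBR227 libraries at 15.1 to 16.7 and 19.2 to 19.4 CPM.

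The TALE class here holds HOX cofactors of the PBC type found by the rule, and none of its 3 genes was called with all libraries. However, 1 was higher at unadjusted p under 0.05, DESeq2 called 1 higher and limma voom none. That gene, ceh-20, the main partner of HOX proteins in the worm, had 65.3, 64.2, 66.9 and 66.0 CPM in HBR227 A to D, against 59.6, 60.8, 59.4 and 60.3 CPM in N2 A to D. The strains did not overlap, and HBR227 A lay within the range of the other HBR227 libraries. The log2 fold change was 0.13 ± 0.04 (adjusted p = 0.066), with adjusted p = 0.025 in DESeq2 and 0.01 without HBR227 A. Of its exon length 10.5% overlaps F31E3.8 on the opposite strand. The intestinal regulator ceh-60 had 1.17 to 1.62 CPM in HBR227 and 1.53 to 2.32 CPM in N2 (-0.38 ± 0.17, adjusted p = 0.14), and was chosen after its values were seen.

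Of the 3 OTX genes, which select sensory neurons of the head, none was called with all libraries, none was under an unadjusted p of 0.05, and DESeq2 and limma voom called none. The AWC and ASE neuron gene ceh-36 had 7.83, 6.56, 4.73 and 5.29 CPM in HBR227 A to D, against 6.71, 9.02, 7.77 and 6.56 CPM in N2 A to D. Its log2 fold change was -0.30 ± 0.17 (adjusted p = 0.24) and, without HBR227 A, -0.44 ± 0.13 (adjusted p = 0.011). The thermosensory AFD neuron selector ttx-1, chosen after its values were seen, had 25.4, 33.7, 32.5 and 33.9 CPM in HBR227 A to D, against 30.1 to 31.8 CPM in N2 (0.02 ± 0.09). HBR227 A was thus the lowest library for ttx-1, and for ceh-36 it was the highest HBR227 library.

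The last group holds 21 ceh genes in none of these classes, of which 14 were tested. Of the tested genes 1 fell, 7.14%, against 10.4% of all genes. That gene, ceh-86, had the largest change of all homeobox genes. It lies on chromosome II, minus strand, 2426366 to 2432072 (WBGene00018355). Its level was 11.6, 8.22, 6.02 and 6.78 CPM in HBR227 A to D, against 14.1, 15.4, 12.8 and 12.3 CPM in N2 A to D. The strains did not overlap, and HBR227 A was the HBR227 library nearest N2. The means were 8.16 ± 2.48 and 13.7 ± 1.4 CPM in HBR227 and N2 (n = 4 each, SD), and the log2 fold change was -0.75 ± 0.19 (SE; adjusted p = 0.019). Without HBR227 A it was -0.96 ± 0.11 (adjusted p = 2.7e-06), while adjusted p was 0.058 without HBR227 D and 0.05 or 0.065 without N2 A or B.

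Of the other genes in that group, ceh-83 showed the widest gap between HBR227 A and its replicates. It had 15.3, 8.34, 8.26 and 7.64 CPM in HBR227 A to D, against 9.76, 13.3, 11.9 and 10.4 CPM in N2 A to D. HBR227 A was the highest of the 8 libraries, and B, C and D were the lowest 3. The log2 fold change was -0.21 ± 0.22 (adjusted p = 0.55) with all libraries and -0.49 ± 0.10 (adjusted p = 0.00072) without HBR227 A. Without HBR227 A, ceh-57 was higher (0.28, adjusted p = 0.01) and ceh-88 (-0.16, adjusted p = 0.032) and ceh-93 (-0.24, adjusted p = 0.014) were lower. Of the exon length of ceh-88, 32.5% overlaps C49C3.6 on the same strand. The gene ceh-100 separated the strains, at 76.0 to 84.1 CPM in HBR227 and 69.8 to 75.4 CPM in N2, without a call (0.11 ± 0.05, adjusted p = 0.15). The other 8 tested genes of the group, ceh-58, ceh-74, ceh-76, ceh-79, ceh-89, ceh-91, ceh-92 and ceh-99, had log2 fold changes of -0.20 to 0.16 and adjusted p of 0.26 or more.

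HBR227 A lay above or below the other 7 libraries in 42 of the 70 genes tested, 60%, against 56.9% of all genes. It was above in 19, 27.1%, against 29.6% of all genes, and below in 23, 32.9%, against 27.3% of all genes. By class its place was uneven. It was above in 6 of 6 HOX genes, and above in 6 and below in 1 of 14 genes without a class. It was below in 9 of 18 ANTP-class genes and above in 1. It was below in 3 of 5 LIM genes, 2 of 3 sine oculis genes, 2 of 2 POU genes and 2 of 3 OTX genes. Among 7 CUT genes it was above in 3 and below in 1. Among 9 paired and paired-like genes it was above in 2 and below in 3. It was above in 1 of 3 TALE genes. The log2 ratio of HBR227 A over the mean of B, C and D ran from -0.70 for ceh-32 to 0.88 for ceh-83, with a median of -0.02. Marker genes moved in the same library: the 8 germ line precursor markers summed to 192 CPM in HBR227 A, 86 to 95.8 CPM in HBR227 B to D and 76.4 to 99.2 CPM in N2. The 9 pharynx markers summed to 3860 CPM in HBR227 A, 5990 to 6230 CPM in HBR227 B to D and 5250 to 5570 CPM in N2, and the 7 body muscle markers to 8240 CPM, 11000 to 11700 CPM and 10500 to 11600 CPM in these groups. The 8 epidermis markers summed to 210 CPM in HBR227 A, 149 to 153 CPM in HBR227 B to D and 181 to 201 CPM in N2. The high sum in HBR227 A came from elt-3 and lin-26, at 75 and 74.5 CPM there, both above the other 7 libraries. The order of the sums, which is that of the HOX sums, therefore does not hold for each marker. With all libraries 4 of these 8 fell, against 10.4% of all genes, and none rose, with a list median of -0.50. Those lower were the cuticle collagen genes dpy-7 (-0.89), dpy-2 (-0.59), dpy-3 (-0.93) and dpy-10 (-0.80). For each, all HBR227 libraries, A included, lay below all N2 libraries. Of the exon length of dpy-10, 49% overlaps T14B4.19 on the same strand. The 4 not called were rol-6 (0.83 ± 0.32, adjusted p = 0.093), elt-3 (0.26 ± 0.13), lin-26 (-0.00 ± 0.08) and bli-1 (-0.40 ± 0.37). Without HBR227 A 4 were lower, against 23.3% of all genes. The count lower was 2 without HBR227 D or N2 B, and 1 was higher without N2 D. No marker of these lists was at 0 in every library, and their part in the homeobox values was not tested.

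Levels can be compared between genes only per length, here CPM per kb of exon, over the 77 genes with an Ensembl gene model under the same name. The highest mean levels over the 8 libraries were those of ceh-20 (49.1), ceh-32 (48.5), ceh-38 (37.5), ceh-13 (35.6), ceh-43 (27.3) and ceh-18 (23.8). In HBR227 the order of these 6 was ceh-20, ceh-32, ceh-38, ceh-13, ceh-18 and ceh-43, and in N2 it was ceh-20, ceh-32, ceh-13, ceh-38, ceh-43 and ceh-18. The range of ceh-32 over HBR227 libraries was wider than its distance from ceh-20, so these 2 did not differ beyond their spread. The median gene had 6.05 CPM per kb, 22 genes were at 10 or more and 11 under 1. Of the 7 called genes, ceh-43, ceh-27, vab-3 and ceh-45 were among the 12 highest, while ceh-33, ceh-23 and ceh-86 were ranked 39, 43 and 48 of 77. The lowest was ceh-12, at 0.0294 CPM per kb, a gene repressed by UNC-4 in motor neurons.

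**Figure D4:**
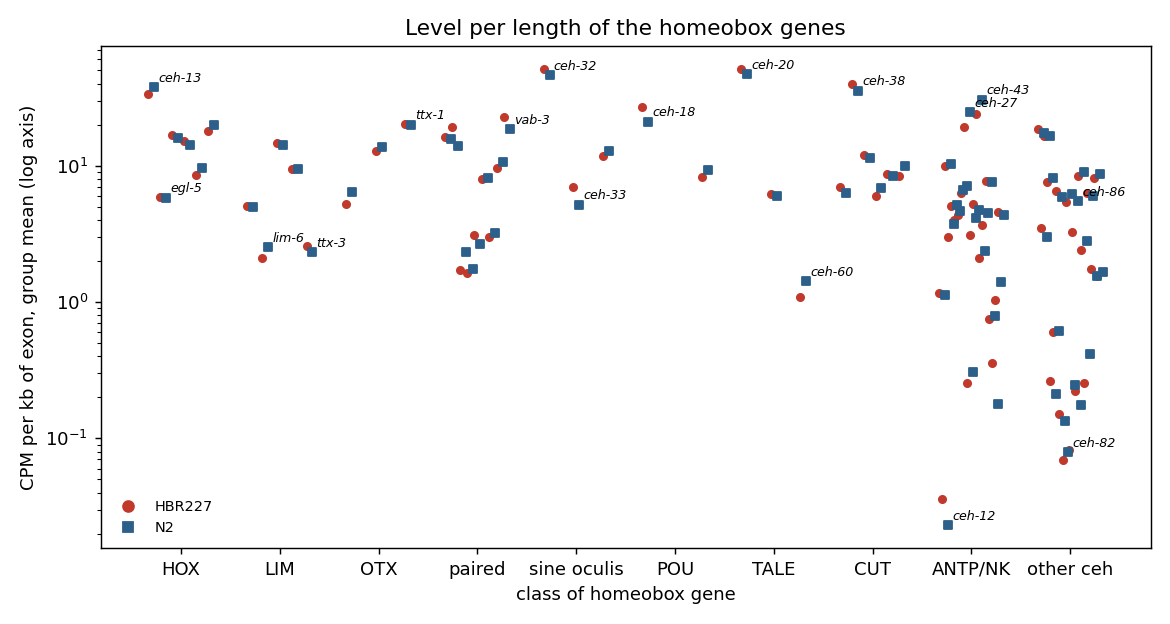
Mean level of each homeobox gene with a gene model, in CPM per kb of exon on a log axis, by class, with HBR227 as red circles and N2 as blue squares to their right. The levels run from 0.0294 for ceh-12 to 49.1 for ceh-20 as the mean of 8 libraries, and the 2 strains lie close together at nearly all genes.

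By position, chromosome X held the most homeobox genes, 22, of which 21 were tested and 1 was called (vab-3). Chromosome III held 14 with 2 lower, chromosome V 14 with 1 higher and 1 lower, and chromosome II 15 with 1 lower. Chromosome I held 9 with 1 higher, and chromosome IV 5 with none called. Of all genes tested, over all chromosomes, 11.2% were higher and 10.4% lower. Shares of all genes by chromosome were not counted, so these counts give no result about position. Of the homeobox genes within 20 kb of another, only ceh-33 was called with all libraries, so no pair could share a call. Its neighbour ceh-34 was not called. The neighbours ceh-30 and ceh-31, 3096 bp apart on opposite strands, had log2 fold changes of -0.40 and 0.14, neither of them called with all libraries. Without HBR227 A the neighbours nob-1 and php-3 were both lower (-0.37 and -0.29), and no other pair shared a call.

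Of 20 homeobox genes with other names 4 fell and none rose with all libraries. That is 20% lower, against 10.4% of all genes. The share called in either direction was 20%, against 21.5% of all genes tested, and the median was -0.02. At unadjusted p under 0.05, 2 were higher, DESeq2 called 1 higher and limma voom none. These calls changed with the libraries used: none was called lower without N2 A, B, C or D or without HBR227 C or D, 3 without HBR227 B, and 1 with the replicate letter as a block. At unadjusted p under 0.05, 4 or 5 were lower in each of those 6 fits without a fall. Without HBR227 A 3 of the 20 were higher, against 21% of all genes, and 8 were lower, against 23.3%. The gene mls-2, an HMX-type gene of mesoderm and glia, had 5.83, 5.95, 5.53 and 4.67 CPM in HBR227 A to D, against 6.95, 7.64, 6.77 and 7.55 CPM in N2 A to D (-0.40 ± 0.11, adjusted p = 0.025). The BSX-type gene tab-1 had 2.34 to 3.72 CPM in HBR227 and 3.77 to 4.67 CPM in N2 (-0.54 ± 0.16, adjusted p = 0.042). Both separated the strains fully, as did irx-1, an Iroquois gene (-0.24 ± 0.06, adjusted p = 0.027), and eyg-1 (-0.54 ± 0.17, adjusted p = 0.046). Of the exon length of irx-1, 14.8% overlaps other genes on the same strand and 16% on the opposite strand.

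Of 19 genes listed as targets of these factors 18 were tested, 1 rose and 2 fell with all libraries, with a median of 0.01. The share called, 16.7%, was near the 21.5% of all genes tested. Without HBR227 A 7 of the 18 were higher, against 21% of all genes, and 2 were lower, against 23.3%. The guanylyl cyclase gene gcy-8, a TTX-1 target in the thermosensory AFD neuron, had 12.2, 14.2, 15.4 and 16.3 CPM in HBR227 A to D, against 10.1, 10, 9.16 and 11.5 CPM in N2 A to D (0.51 ± 0.11, adjusted p = 0.01). The other AFD cyclase genes on the list, named after their values were seen, were not called: gcy-18 had 8.29 to 13.4 CPM in HBR227 and 13.7 to 14.8 CPM in N2 (-0.27 ± 0.14), and gcy-23 had 19.4 to 23.3 CPM in HBR227 and 17.9 to 21.3 CPM in N2 (0.14 ± 0.09). The gene vap-1, a TTX-1 target in the amphid sheath glia, had 29.2, 39.8, 43.2 and 43.3 CPM in HBR227 A to D, against 59.0, 54.6, 63.2 and 62.7 CPM in N2 A to D (-0.62 ± 0.12, adjusted p = 0.0053). The AIY secreted protein gene hen-1 had 0.458 to 0.703 CPM in HBR227 and 0.857 to 1.12 CPM in N2 (-0.68 ± 0.20, adjusted p = 0.036). The call of hen-1 held in 1 of the 8 fits that left out a library, the fit without HBR227 A, while those of gcy-8 and vap-1 held in all 8. Other AIY genes on the list, also named after their values were seen, did not pass with all libraries: ser-2 was at 0.20 ± 0.11 (adjusted p = 0.24, and 0.018 without HBR227 A, where it was higher), kal-1 at -0.05 ± 0.06 and sra-11 at 0.06 ± 0.25.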

How the data were processed

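RNA was taken with Trizol from bead-beaten whole larvae and sequenced from libraries made by Illumina protocols, per the labels' protocols. The deposited values are raw read counts per gene for all 8 libraries, not scaled by the authors. The submitters' processing notes name Bowtie 0.12.2 and the build WBcel235; for the counting program, annotation, filters, strand and multi-mapping reads, the sources used here give nothing, so overlapping genes and close paralogs may share reads. Of 46433 rows, 11 whose gene name had turned into a date (0.0333% of counts) were left out, and 18253 rows had 0 counts in every library.

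The main test was the robust quasi-likelihood F test of edgeR 4.0.16 (R 4.3.3) on all 8 libraries without covariates, after TMM scaling and filterByExpr (minimum count 10), with Benjamini-Hochberg adjustment over 17522 genes. HBR227 minus N2 is the direction of log2 fold changes, and the SE was the size of a fold change divided by the square root of its F statistic. The labels do not say whether replicates were separate cultures, so p-values measure only the spread between these libraries. No same-strain pair of libraries was a repeat (chi-square per degree of freedom at least 4.44). Gene models came from Ensembl release 115, which matched 77 of the 79 names; the other 2 were placed by RefSeq symbol. The alternatives were DESeq2 1.42.0 (its size factors or its test), upper quartile scaling, total counts alone, limma 3.58.1 voom, no filter or a CPM of 1 in 4 libraries, a threshold of 0.01, the replicate letter as a block term, and single libraries left out in turn. The edgeR script was tested on simulated counts. Figures were drawn with Python 3.11.15 and matplotlib 3.10.9.

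The genes, classes and lists were chosen with earlier results of these data known. Classes hold only genes found by the rule, so related homeobox genes with other names are outside them. Named are aptf-1; every called gene; the 6 with the highest level per length; the gene with the smallest p of each class; all HOX and LIM genes; genes that separate the strains fully without a call; genes whose call changes without HBR227 A; and up to 4 called genes of each list outside the rule that is described. Sequences and promoter motifs were not analysed here.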

Additional observations from a re-analysis of the deposited data

Results flagged for a closer look

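In 16 of 140 groups of 4 libraries (70 genes in each strain), the highest or lowest library lay far from the other 3. The gap was past Dixon's critical share of the group's range, which chance passes in about 1 single group in 20. The groups share the same 8 libraries and are not independent, so this rate gives no test of their number. HBR227 A was the library set apart in 9 groups. It was high for ceh-13 (37.1 CPM), ceh-21 (24.1), ceh-39 (29.4), ceh-40 (9.91) and ceh-83 (15.3), and low for ceh-32 (64.3), lim-7 (22.1), ttx-1 (25.4) and vab-3 (52.1). HBR227 B, C and D were set apart in none.

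In N2 the other 7 groups were spread over the libraries. N2 A was low for egl-5 at 8.11 CPM. N2 B was high for ceh-62 at 9.83 CPM and ceh-93 at 16.2 CPM, and low for php-3 at 22.5 CPM. N2 C was low for ceh-8 at 3.24 CPM. N2 D was low for ceh-2 at 3.73 CPM and high for mab-5 at 17.7 CPM. What set these libraries apart was not tested.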

How the results depend on the processing

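No called homeobox gene changed direction under any alternative. At an adjusted p under 0.01, 0 homeobox genes were higher and 1 lower (952 and 770 of all genes), against 3 and 4 at 0.05 (1960 and 1814). With total counts alone, 0 were higher and 11 lower (1174 and 3111 of all genes), the homeobox median was -0.16 and the median of all genes moved to -0.11. The DESeq2 test called 7 higher with a median of -0.03, and no low-count filter gave a median of -0.03. The letters A to D showed no clear pairing of the libraries. Same-letter correlations of deviations were -0.0141, 0.142, 0.0341 and -0.0144, and 3 of 8 libraries correlated best with their own letter. With so few letters, and HBR227 A apart, these values cannot show whether libraries were prepared in pairs. With the letter as a replicate block, 2 homeobox genes were higher and 4 lower, the median was -0.07, and ceh-33 lost its call (adjusted p = 0.056). Leaving out each library in turn gave 0 to 10 homeobox genes higher and 1 to 14 lower, medians of -0.09 to -0.02, and 1317 to 3748 higher and 1034 to 4158 lower of all genes; the highest counts came without HBR227 A. The cause was not tested. Uncalled values of egl-5, lim-4, lim-7, lin-11, lin-39 and mab-5 changed sign in 16 cases, 6 of them with total counts alone. Low counts limit ceh-28 and ceh-76 (SE 0.51 and 0.38) and the 9 untested genes.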
